A study of Mus musculus with 6 samples.

Results

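The genes described here are 10 chromatin assembly factors and histone chaperones: Chaf1a, Chaf1b, Asf1a, Asf1b, Rbbp4, Hira, Cabin1, Nasp, Daxx and Atrx. They are 10 of the 41388 Ensembl gene identifiers in a table of liver RNA-seq counts, and all 10 were among the 12988 genes that passed the filter on low counts. They were matched by symbol, and the set was chosen from what the genes do and from a measured value, the opposite genotype differences of Chaf1a and Chaf1b. The genotype differences of all 10 genes are therefore given as a description with standard errors and no p-value, and nothing is read from whether a gene passed the threshold in that contrast. The study compared livers of Atp7b-/- mice (3 libraries) with livers of wild type mice (3 libraries). Both genotypes were of strain C57BLx129S6SvEv, 6 weeks old, with males and females by the labels, and ate a diet with 16 ppm copper. Atp7b-/- is the genotype as labelled, with no tissue-specific driver named. Atp7b encodes the ATPase that exports copper from hepatocytes, and copper builds up in the liver when it is lost, as in Wilson disease. RNA came from frozen liver tissue, so fewer cells of a type and less RNA per cell cannot be told apart.

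Histone chaperones escort newly made or recycled histones and hand them to DNA so that they do not bind elsewhere. The CAF-1 complex, made of the products of Chaf1a, Chaf1b and Rbbp4, deposits histones H3 and H4 behind the replication fork, where it binds the sliding clamp PCNA. The ASF1 proteins, encoded by the paralogs Asf1a and Asf1b, receive H3 and H4 and pass them to CAF-1 or to the HIRA complex. HIRA, with CABIN1, deposits the variant H3.3 outside replication, mainly in active genes, and DAXX with ATRX deposits H3.3 in repeats and near telomeres. NASP keeps a soluble reserve of H3 and H4. CAF-1 genes and Asf1b are known as genes of dividing cells, and the adult liver divides little.

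Promoter windows of Chaf1a, Chaf1b, Asf1b and Asf1a are shown because the first 3 of these genes had the largest genotype differences and Asf1a is the paralog of Asf1b. Each window runs from 250 bases before to 50 bases after the transcription start in RefSeq on build GRCm38.p6, written 5′ to 3′ on the strand of the gene. All 4 genes lie on the plus strand, with windows at chr17:56040166-56040465 (Chaf1a), chr16:93883651-93883950 (Chaf1b), chr8:83955444-83955743 (Asf1b) and chr10:53596711-53597010 (Asf1a). Capitals mark the CCAAT box (CCAAT, or ATTGG on the other strand) and the cell cycle homology region, CHR (TTTGAA or TTCGAA, either strand). The CHR is bound by the complexes that hold late cell cycle genes silent in resting cells.
Chaf1a: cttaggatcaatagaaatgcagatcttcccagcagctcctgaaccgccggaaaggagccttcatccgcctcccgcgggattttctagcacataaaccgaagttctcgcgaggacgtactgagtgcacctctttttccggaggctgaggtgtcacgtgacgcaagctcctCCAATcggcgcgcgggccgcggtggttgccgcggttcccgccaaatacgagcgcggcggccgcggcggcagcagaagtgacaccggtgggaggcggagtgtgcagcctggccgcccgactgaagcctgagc
Chaf1b: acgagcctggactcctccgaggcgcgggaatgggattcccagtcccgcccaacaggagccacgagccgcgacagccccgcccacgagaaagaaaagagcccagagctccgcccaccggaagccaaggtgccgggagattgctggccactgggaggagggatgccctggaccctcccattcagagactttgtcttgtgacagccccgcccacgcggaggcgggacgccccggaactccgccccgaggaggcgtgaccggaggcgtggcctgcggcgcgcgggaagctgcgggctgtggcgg
Asf1b: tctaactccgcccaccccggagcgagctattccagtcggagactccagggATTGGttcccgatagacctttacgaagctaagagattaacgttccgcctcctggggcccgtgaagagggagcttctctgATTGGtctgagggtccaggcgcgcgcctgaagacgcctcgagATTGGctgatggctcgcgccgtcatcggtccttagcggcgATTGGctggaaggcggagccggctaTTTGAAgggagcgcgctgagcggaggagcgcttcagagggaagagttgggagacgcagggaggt
Asf1a: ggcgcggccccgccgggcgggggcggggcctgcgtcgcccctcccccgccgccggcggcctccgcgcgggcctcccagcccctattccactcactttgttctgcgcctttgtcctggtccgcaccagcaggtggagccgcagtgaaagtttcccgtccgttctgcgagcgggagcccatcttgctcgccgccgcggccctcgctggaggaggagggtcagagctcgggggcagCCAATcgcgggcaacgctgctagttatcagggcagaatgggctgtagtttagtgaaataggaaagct

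The windows of Chaf1a and Chaf1b differed in these letters, and any link to their genotype differences was not tested. The Chaf1a window held 1 CCAAT box at -81 from the start, 1 E-box (CACGTG, the site of Myc and related factors) at -99, and 2 cores of the metal response element (TGCACNC or TGCGCNC) on the other strand. The Chaf1b window, with 70.3% G and C, held none of the motifs searched. In Asf1b there were 4 CCAAT boxes, all on the other strand at -200, -121, -79 and -39, and a CHR at -14. Asf1a had 1 CCAAT box at -17.

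Of the 10 genes, 8 had a CCAAT box in a window (all but Chaf1b and Hira), against 37.4% of all 32851 windows. A CHR was in Asf1b and Nasp, against 19.2% of windows, and an E-box in Chaf1a and Rbbp4, against 7.15%. The metal response core was in 4 of the genes (Chaf1a, Rbbp4, Cabin1 and Atrx), against 25.7% of windows. None held an E2F string as searched (TTTCCCGC, TTTCGCGC, TTTGCCGC or TTTGGCGC, 2.26% of windows) or a p53 half-site (8.36%). Both strands were searched, and these matches describe letters only. For E2F only the exact strings listed were searched, so other forms of an E2F site may be present. On its other strand the Chaf1a window holds a run that differs from TTTGGCGC only in the last letter. RefSeq lists 3 overlapping windows for Daxx and 1 for each other gene.

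Total counts were 5919389 to 25973968 per library. Of each genotype, 2 libraries were sequenced single-end and 1 paired-end (wild type replicate 1 and Atp7b-/- replicate 3), a difference called layout below. What else differed along with layout is not known here. Nothing in the labels says outright that libraries came from separate animals, so p-values measure the spread between libraries, which may be technical. Levels are given in CPM, counts scaled to library size after TMM normalization, which sets a common scale between libraries. Atp7b itself was 19.2, 13.8 and 13.3 CPM in Atp7b-/- replicates 1 to 3, against 25.3, 85.2 and 59.7 CPM in wild type. In 2 libraries labelled female, transcripts went against that label: Xist, made by the inactive X chromosome, was 0.482 CPM in Atp7b-/- replicate 3 and 17.4 CPM in wild type replicate 3, against 371 CPM in wild type replicate 2. In the same 3 libraries the Y-linked gene Ddx3y was 126, 28 and 0.34 CPM. In the libraries labelled male, Atp7b-/- replicates 1 and 2 and wild type replicate 1, Xist was 0.117, 0.702 and 1 CPM. Ddx3y was 29.5, 37.7 and 161 CPM there. By these transcripts every Atp7b-/- library looked male, while wild type was mixed, so sex partly follows genotype. Its part in the genotype differences was not tested. Summed hepatocyte markers (8 genes, Alb among them) were 52200 to 70790 CPM in Atp7b-/- livers, against 76530 to 116200 CPM in wild type, with none of the 8 called between genotypes.

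Chaf1a and Asf1b transcripts were higher and Chaf1b transcripts lower in Atp7b-/- livers. In the main fit the other 7 genes stayed within 0.13 of no difference on the log2 scale, and some moved further in other fits. Each of those 3 genes had genotype ranges that did not overlap, and none of the other 7 did. Over all genes tested, 8.51% had ranges that did not overlap. By edgeR's quasi-likelihood test with layout and genotype as terms, a gene is called here at an adjusted p under 0.05. Over all genes 2.49% were called by genotype, 1.9% as higher and 0.585% as lower. The 3 genes above passed that threshold too, which is no evidence, since the set was formed on this contrast. When either paired-end library was removed, Chaf1b and Asf1b lost their calls and Chaf1a did not. Those fits share 1 genotype comparison, that of the single-end libraries, since the remaining paired-end library is fitted exactly. Chaf1b lost its call also on removal of wild type replicate 2, or of replicates 1 or 2 of Atp7b-/-, and no gene of the 10 was called in a fit without layout. Removing both libraries that go against their labelled sex gave a log2 difference of 3.01 for Chaf1a (SE 0.46). It gave -3.41 for Chaf1b (SE 0.73) and 2.84 for Asf1b (SE 0.75). Wild type replicate 1 is then the only paired-end library and is fitted exactly. The fit thus sets Atp7b-/- replicates 1 and 2, male by label and transcripts, against wild type replicate 2 alone, female by both. Sex and genotype cannot be told apart there.

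**Figure D1:**
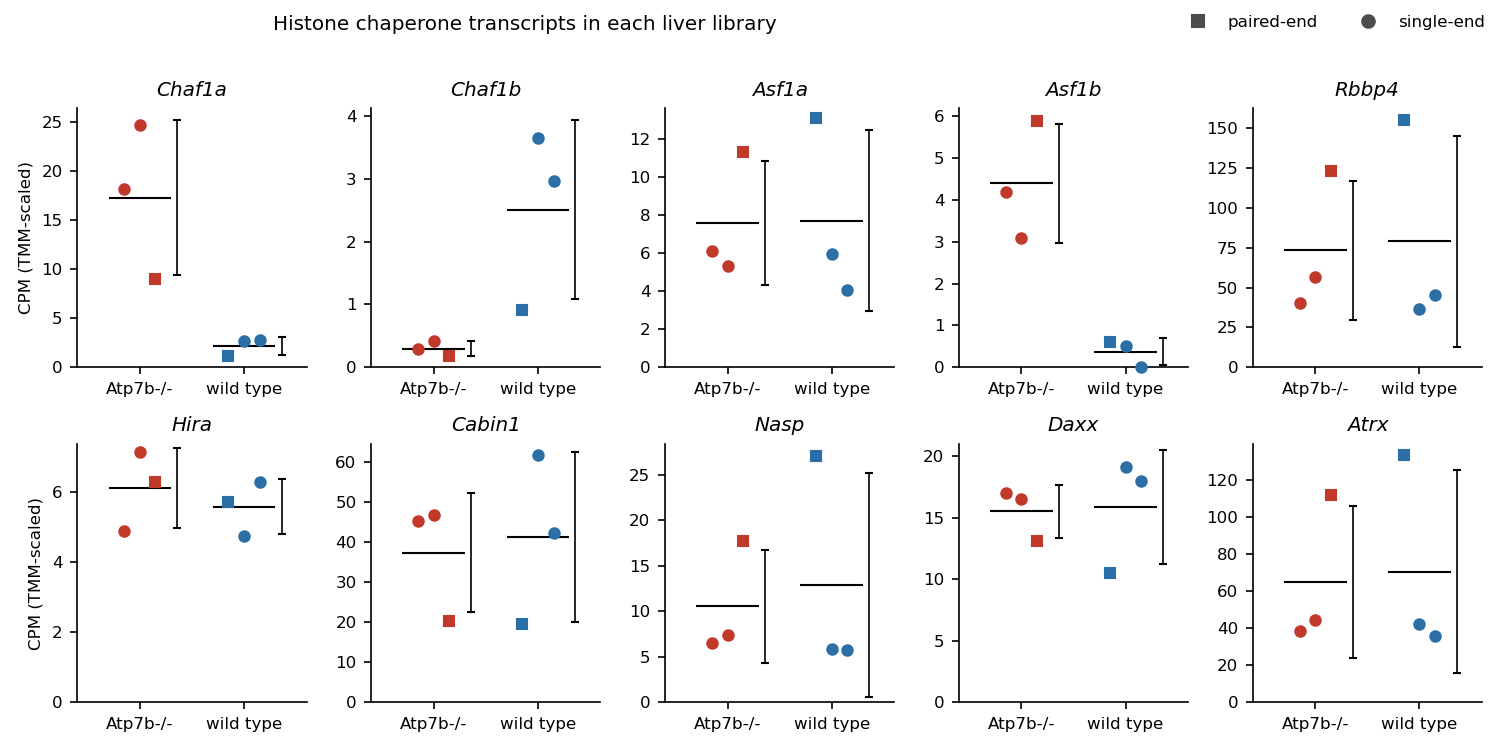
TMM-scaled CPM (y axis, linear) of the 10 genes in each library, Atp7b-/- on the left and wild type on the right. Squares are paired-end and circles single-end libraries, black lines are means of 3 libraries and bars 1 SD. Chaf1a, Chaf1b and Asf1b separate by genotype, whereas in Rbbp4, Nasp, Atrx and Asf1a the squares lie above the circles in both genotypes and in Cabin1 and Daxx below them.

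Chaf1a (ENSMUSG00000002835, chr17:56040439-56072289, plus strand) encodes the largest subunit of CAF-1, which binds PCNA and the heterochromatin protein HP1. It stood at 18.2, 24.7 and 8.95 CPM in Atp7b-/- replicates 1 to 3, against 1.14, 2.63 and 2.78 CPM in wild type libraries. The lowest Atp7b-/- library was the paired-end one, as was the lowest wild type library. Means were 17.3 ± 7.91 CPM in Atp7b-/- and 2.19 ± 0.906 CPM in wild type (SD, n = 3 each), and the fitted difference was 2.97 on the log2 scale (SE 0.27), or 7.86-fold. The raw counts behind this were 312, 176 and 260 in Atp7b-/- libraries and 25, 31 and 15 in wild type. Leaving out any 1 library gave 2.85 to 3.11.

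The Chaf1a gene overlaps Ubxn6, a gene on the opposite strand that encodes a cofactor of the ATPase VCP. They share 4648 of the 8854 exonic bases annotated for Chaf1a, and 2692 of the 5535 bases of its principal transcript. Whether the counting used strand is not known here, so how reads from the shared stretch were assigned is uncertain. Ubxn6 itself was 62.3, 50.5 and 32.3 CPM in Atp7b-/- livers, against 33.4, 66.1 and 72.3 CPM in wild type. Its log2 difference was -0.21 (SE 0.19), and the genotypes overlapped.

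Chaf1b (ENSMUSG00000022945, chr16:93883901-93906115, plus strand) encodes the middle subunit of CAF-1, a WD-repeat protein that binds ASF1. Its level was 0.292, 0.421 and 0.172 CPM in Atp7b-/- replicates 1 to 3, against 0.914, 3.65 and 2.97 CPM in wild type libraries. The highest Atp7b-/- library lay under the lowest wild type library, which was the paired-end one. Counts were few: 5, 3 and 5 in Atp7b-/- libraries, against 20, 43 and 16 in wild type. Mean levels were 0.295 ± 0.124 CPM in Atp7b-/- and 2.51 ± 1.43 CPM in wild type (SD, n = 3 each). The fitted log2 difference was -2.96 (SE 0.51), and it was -3.27 to -2.64 with any 1 library left out. No counted gene shares exons with Chaf1b.

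The third subunit of CAF-1, RBBP4 (ENSMUSG00000057236, chromosome 4), also belongs to histone deacetylase, Polycomb and DREAM complexes. Rbbp4 was 40.5, 56.5 and 123 CPM in Atp7b-/- replicates 1 to 3, against 155, 36.7 and 45.2 CPM in wild type. The genotypes overlapped and the paired-end library was the highest of each. The fitted log2 difference was 0.05 (SE 0.22). The closely related Rbbp7, whose protein takes its place in several complexes, had 57.3, 69.3 and 67.4 CPM in Atp7b-/- livers, against 81.6, 42.1 and 58.8 CPM in wild type (log2 difference 0.13, SE 0.22). Reads that fit both paralogs could have been split between them.

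The ratio of the CAF-1 subunit transcripts Chaf1a and Chaf1b is given as a description. The set was chosen on their opposite genotype differences, so a ratio that separates by genotype restates that choice. Per kilobase of merged exons, Chaf1a over Chaf1b was 33, 31 and 27.5 in Atp7b-/- replicates 1 to 3, against 0.661, 0.381 and 0.496 in wild type. The Atp7b-/- and wild type ratios lay far apart, and Chaf1a was the more abundant transcript in each Atp7b-/- library. With the length of the principal transcript in place of merged exons, the mean ratio was 20 in Atp7b-/- and 0.337 in wild type, against 30.5 and 0.513. Over the 4206 merged bases of Chaf1a that no other counted gene shares, as if no read from the stretch shared with Ubxn6 had been counted, the ratio was 69.5, 65.3 and 57.9 in Atp7b-/-, against 1.39, 0.802 and 1.04 in wild type. Which transcript was the more abundant in wild type livers therefore depends on how those reads were assigned. This ratio rests on 3 to 5 Chaf1b counts in each Atp7b-/- library.

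Asf1b (ENSMUSG00000005470, chr8:83955507-83970197, plus strand), the ASF1 paralog tied to proliferation, went with Chaf1a. Its level was 4.2, 3.09 and 5.89 CPM in Atp7b-/- replicates 1 to 3, against 0.594, 0.51 and 0 CPM in wild type libraries. The groups were apart, and wild type replicate 3, the shallowest library, had no count. Counts were 72, 22 and 171 in Atp7b-/- libraries, against 13, 6 and 0 in wild type. The log2 difference was 3.38 (SE 0.55), or 10.4-fold, and 3.08 to 3.79 with any 1 library left out.

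Asf1a (ENSMUSG00000019857, chromosome 10), the paralog used mainly with HIRA, was 6.12, 5.33 and 11.4 CPM in Atp7b-/- livers, against 13.1, 5.95 and 4.08 CPM in wild type. Its log2 difference was 0.03 (SE 0.27), and the genotypes overlapped. Asf1a shares 1515 of the 2201 bases of its principal transcript with Mcm9 on the opposite strand. Per kilobase, Asf1b over Asf1a was 1.07, 0.901 and 0.806 in Atp7b-/- replicates 1 to 3, against 0.0705, 0.133 and 0 in wild type. With principal transcript lengths it was 0.844, 0.713 and 0.638 in Atp7b-/-, against 0.0558, 0.105 and 0 in wild type. Over merged bases not shared with Mcm9 it was 0.554, 0.468 and 0.419 in Atp7b-/-, against 0.0366, 0.0693 and 0 in wild type. The ratio was higher in each Atp7b-/- library. A change of length scales every library alike, so it alters the size of the ratio and cannot alter this order. The set was formed on the genotype contrast, so this ratio too is only a description.

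Nasp (ENSMUSG00000028693, chromosome 4), the H3 and H4 reserve chaperone, was 6.47, 7.44 and 17.7 CPM in Atp7b-/- replicates 1 to 3, against 27.1, 5.86 and 5.75 CPM in wild type. Both single-end Atp7b-/- libraries were slightly above both single-end wild type libraries, while the paired-end pair had the opposite order. The fitted log2 difference was -0.08 (SE 0.26).

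The H3.3 chaperones showed little difference. Hira (ENSMUSG00000022702, chromosome 16), which forms the scaffold of its complex, was 4.9, 7.16 and 6.3 CPM in Atp7b-/- livers, against 5.71, 4.76 and 6.3 CPM in wild type (log2 difference 0.13, SE 0.29). Hira shares 2778 of the 4218 bases of its principal transcript with Gm28539, a gene on the same strand with a count of 0 in every library, so its level may be understated. Cabin1 (ENSMUSG00000020196, chromosome 10), a large partner of HIRA, was 45.3, 46.9 and 20.3 CPM in Atp7b-/- livers, against 19.6, 62 and 42.5 CPM in wild type (-0.11, SE 0.20). The paired-end library was the lowest of each genotype for Cabin1, and for Hira the layouts were mixed.

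Daxx (ENSMUSG00000002307, chromosome 17), the H3.3 chaperone of PML bodies, was 17, 16.6 and 13.1 CPM in Atp7b-/- livers, against 10.6, 19.1 and 18 CPM in wild type (log2 difference 0.01, SE 0.21). Atrx (ENSMUSG00000031229, chromosome X), the remodelling ATPase that works with DAXX, was 38.6, 44.5 and 112 CPM in Atp7b-/- livers, against 134, 42.1 and 36 CPM in wild type (-0.03, SE 0.19). At 1 SE on either side, the fold differences of these 7 genes lay between 0.791 (Nasp) and 1.34 (Hira).

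Set per kilobase of merged exons (RPKM), the order of the mean levels differed between genotypes below Asf1a. In Atp7b-/- livers Rbbp4 was highest at 8.39 ± 5.01 RPKM, followed by Daxx (4.94 ± 0.682), Cabin1 (3.08 ± 1.23), Atrx (2.99 ± 1.88), Asf1a (2.09 ± 0.901), Chaf1a (1.95 ± 0.893), Asf1b (1.88 ± 0.604), Nasp (1.4 ± 0.828), Hira (0.984 ± 0.183) and Chaf1b (0.063 ± 0.0266). In wild type livers the order was Rbbp4 (9.05 ± 7.57 RPKM), Daxx (5.04 ± 1.48), Cabin1 (3.4 ± 1.75), Atrx (3.25 ± 2.52), Asf1a (2.12 ± 1.31), Nasp (1.71 ± 1.63), Hira (0.9 ± 0.125), Chaf1b (0.537 ± 0.305), Chaf1a (0.247 ± 0.102) and Asf1b (0.157 ± 0.138), all as SD with n = 3. Neighbours in this order overlapped within 1 SD throughout in wild type, and in Atp7b-/- livers all did but Hira and Chaf1b. The order also depends on length. With principal transcripts Atrx came second, at 6.34 RPKM in Atp7b-/- and 6.87 RPKM in wild type, and Nasp moved up, to 4.97 RPKM in Atp7b-/- and 6.09 RPKM in wild type. The 3 genes with large genotype differences were the 3 lowest in wild type by either length.

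**Figure D2:**
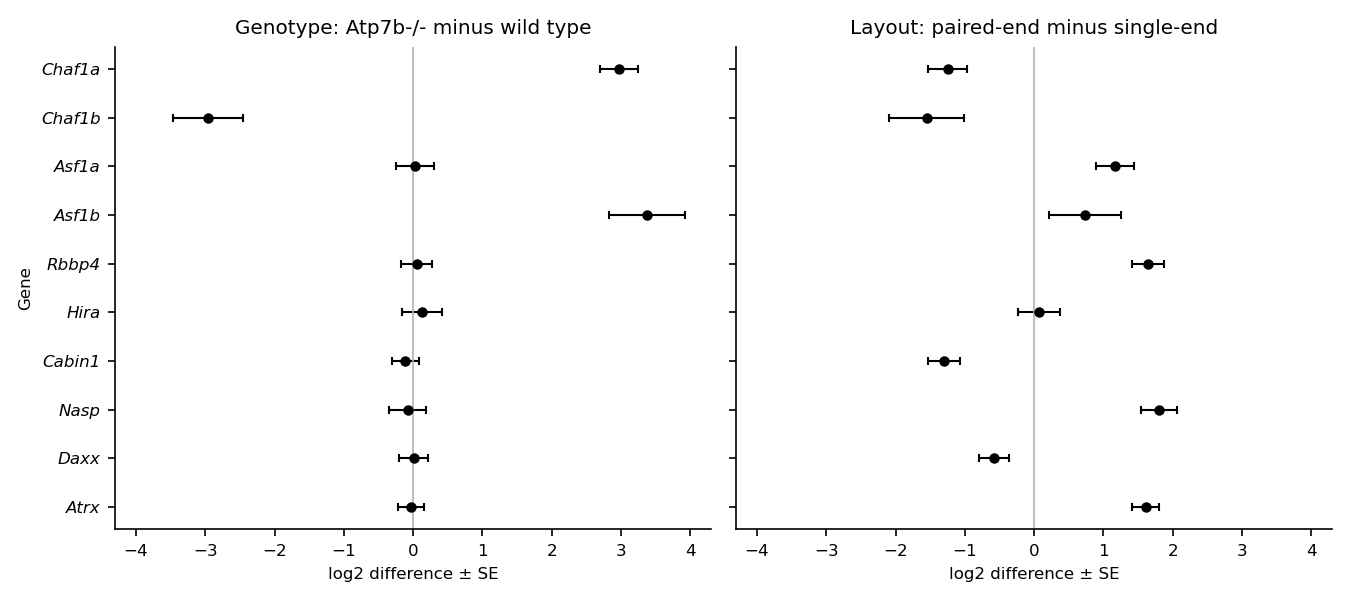
Fitted log2 differences with SE (x axis) for the 10 genes, for genotype on the left and layout on the right, from the same edgeR fit. In the genotype panel Chaf1a (2.97), Asf1b (3.38) and Chaf1b (-2.96) stand away from 0, and in the layout panel most genes do.

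The layout difference was not used to choose the genes and was tested. It was called for 7 of the 10 genes, against 52.8% of all genes, which is not far from the background for a set of 10. Higher in the paired-end libraries were Nasp (3.47-fold, edgeR adjusted p = 0.000615), Rbbp4 (3.13-fold, 0.000508), Atrx (3.05-fold, 0.000291) and Asf1a (2.25-fold, 0.00605). Atrx had 112 and 134 CPM in the paired-end libraries and 36 to 44.5 CPM in the single-end ones. Lower in the paired-end libraries were Chaf1b (log2 difference -1.55, SE 0.54, adjusted p = 0.0379), Cabin1 (-1.30, SE 0.23, 0.00161) and Chaf1a (-1.25, SE 0.28, 0.00538). Cabin1 had 19.6 and 20.3 CPM in the paired-end libraries, and its single-end values began at 42.5 CPM. Not called were Daxx (-0.58, SE 0.22, adjusted p = 0.0531), Asf1b (0.73, SE 0.52, 0.263) and Hira (0.07, SE 0.30, 0.851). The layout call of Chaf1b was lost when any 1 library was left out, that of Chaf1a without Atp7b-/- replicate 3, and that of Asf1a without wild type replicate 1 (adjusted p up to 0.466, 0.0667 and 0.104). Within each genotype, labelled sex divides the libraries as layout does, and there they cannot be told apart. By Xist and Ddx3y, every Atp7b-/- library looked male, so in that genotype only the label varies with layout.

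The genotype difference had the same sign in both layouts for Chaf1a, Chaf1b, Asf1b and Hira. In log2 CPM, Chaf1a differed by 2.84 in the paired-end pair and 2.91 in the single-end libraries, Asf1b by 3.06 and 3.69, and Chaf1b by -1.79 and -2.83. The smaller paired-end value of Chaf1b comes from 5 counts in the Atp7b-/- library against 20 in the wild type one. For the other 6 genes the sign differed, with sizes of 0.05 to 0.61. A change of the genotype difference with layout was called for 0 of the 10 genes, against 0.0154% of all genes (2 of 12988). At an unadjusted p under 0.05 the count was also 0 of the 10, and 594 over all genes. DESeq2 and limma-voom likewise called 0 of the 10. Each paired-end library is fitted exactly in this test, so its spread comes from the single-end libraries. By the labels, the paired-end pair sets a female Atp7b-/- library against a male wild type one. The single-end libraries set male Atp7b-/- against female wild type. A change of the genotype difference with layout therefore cannot be told apart from a difference by labelled sex. By Xist and Ddx3y, however, both paired-end libraries looked male. The single-end libraries set male Atp7b-/- against wild type that was female or mixed by these transcripts.

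**Figure D3:**
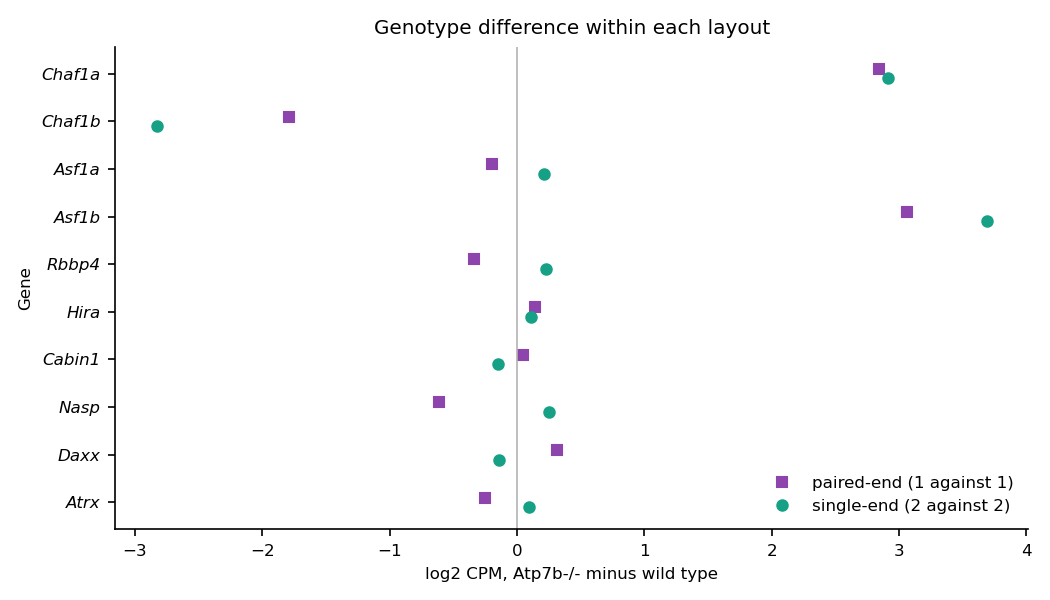
Difference in mean log2 CPM between Atp7b-/- and wild type libraries (x axis) within the paired-end pair (squares) and within the single-end libraries (circles) for each gene. Chaf1a, Asf1b and Chaf1b lie on the same side of 0 in both layouts, and the other genes lie within 0.61 of 0.

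Among genes related to these chaperones, 12 of 112 measured genes of 8 lists rose in Atp7b-/- livers and 0 fell, which left 100 without a call. The lists were chosen with earlier results of these data known. Their counts and adjusted p-values, here and below, are therefore a description and no independent evidence. Over all genes 1.9% rose and 0.585% fell, with a median log2 difference of -0.01, and the median over these 112 was -0.03. Removing wild type replicate 1 gave a count of 6, removing Atp7b-/- replicate 3 one of 4, and removing both paired-end libraries one of 5. These removals all rest on the genotype comparison of the single-end libraries and are not separate checks. A fit without layout called 0.

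The list of CENP-A deposition held the largest share of risen genes, 5 of 7 (median log2 difference 2.24). CENP-A is the H3 variant of centromeres, loaded after mitosis by its own chaperone. Cenpa was 15, 13.3 and 15 CPM in Atp7b-/- livers, against 2.65, 3.06 and 2.41 CPM in wild type. It rose by 2.41 on the log2 scale (SE 0.26, edgeR adjusted p = 0.00171). Libraries of a genotype lay close together and the genotypes were far apart. Hjurp, the chaperone of CENP-A, was 189, 197 and 169 CPM in Atp7b-/- livers, against 73.7, 70.3 and 70.6 CPM in wild type. It rose 2.58-fold (edgeR adjusted p = 0.00495), and neither gene lost its call when any 1 library was left out.

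Licensing factors of CENP-A loading rose as well. Mis18a rose 4.03-fold, to 11.9 ± 1.01 CPM in Atp7b-/- livers, against 2.99 ± 0.465 CPM in wild type (edgeR adjusted p = 0.00483). Oip5 had 47, 15 and 235 counts in Atp7b-/- libraries, against 14, 0 and 0 in wild type (adjusted p = 0.00844), which leaves the size of its rise uncertain. The paired-end Atp7b-/- library was the highest for Oip5. Without that library the calls of Mis18a and Oip5 were lost (adjusted p up to 0.0634 and 0.0698). No member of this list fell.

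Among 23 other histone chaperones, 2 rose and 21 did not pass the test (median -0.05). These were Hjurp and Mms22l, which works with TONSL on new histones at damaged forks. Mms22l was 6.53, 6.45 and 8.09 CPM in Atp7b-/- livers, against 2.29, 1.87 and 2.78 CPM in wild type (3.11-fold, edgeR adjusted p = 0.0275). Its call held only without wild type replicate 3 among the 6 leave-outs (up to 0.189). In the list of histone supply and ASF1 partners, 1 of 13 rose (median 0.03). That was Zfp473, whose human product takes part in the processing of histone mRNA, with 49, 19 and 59 counts in Atp7b-/- libraries, against 7, 1 and 1 in wild type (11-fold, edgeR adjusted p = 0.0154). Its call did not survive removal of wild type replicate 1, or of replicates 1 or 3 of Atp7b-/- (up to 0.0647).

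Of 18 partners of CAF-1 at forks and in heterochromatin, PCNA and the MCM helicase genes included, 1 rose, 17 did not pass the test and the median was -0.23. The riser was Suv39h1, a methyltransferase of H3 lysine 9 in heterochromatin. Suv39h1 stood at 33.5, 25 and 23.4 CPM in Atp7b-/- livers, against 5.26, 6.8 and 8.16 CPM in wild type, a rise of 2.04 on the log2 scale (SE 0.22, edgeR adjusted p = 0.00189). The groups were apart, and the call held without any 1 library.

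In the complexes that share RBBP4, 2 of 30 genes rose and 28 did not pass the test (median -0.09). Both encode subunits of the MuvB core, which with RBBP4 forms the DREAM and MYB-MuvB complexes and, in the case of Lin54, binds the CHR. Lin54 was 39.1, 40.8 and 46.7 CPM in Atp7b-/- livers, against 14.8, 10 and 10.6 CPM in wild type (3.61-fold, edgeR adjusted p = 0.00144), and held without any 1 library. Lin9 had 6.24, 9.54 and 18.6 CPM in Atp7b-/- livers, against 6.08, 1.79 and 2.6 CPM in wild type (3.4-fold, adjusted p = 0.0166). Its genotypes barely separated across layouts, and either paired-end library decided the call (up to 0.13 with one removed).

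Histone genes themselves were mostly not called. Of 10 replacement histone variants Cenpa alone rose (median -0.05). Clustered histone mRNAs mostly carry no poly(A) tail. Of 67 such genes 9 passed the filter, and 2 of the 9 rose (median 0.34). The linker histone gene Hist1h1c was 69, 47.7 and 93.2 CPM in Atp7b-/- livers, against 21.4, 13.9 and 20.2 CPM in wild type (3.74-fold, edgeR adjusted p = 0.00371). Hist2h3c2, which has near-identical H3 copies and is uncertain as a single gene, had 34, 8 and 87 counts in Atp7b-/- libraries, against 10, 2 and 1 in wild type (adjusted p = 0.0248). The Hist1h1c call also depended on each paired-end library (up to 0.0527), and that of Hist2h3c2 in each leave-out but that of Atp7b-/- replicate 2 (up to 0.188).

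Of 9 partners of HIRA, DAXX and ATRX in H3.3 deposition and PML bodies, 0 were called by edgeR, DESeq2 or limma-voom, and 2 had an unadjusted p under 0.05. Trim28, a corepressor that recruits SETDB1, was 84.9, 95.1 and 52.7 CPM in Atp7b-/- livers, against 59.3, 137 and 133 CPM in wild type, and the genotypes overlapped (log2 difference -0.45, SE 0.19, edgeR adjusted p = 0.314).

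**Figure D4:**
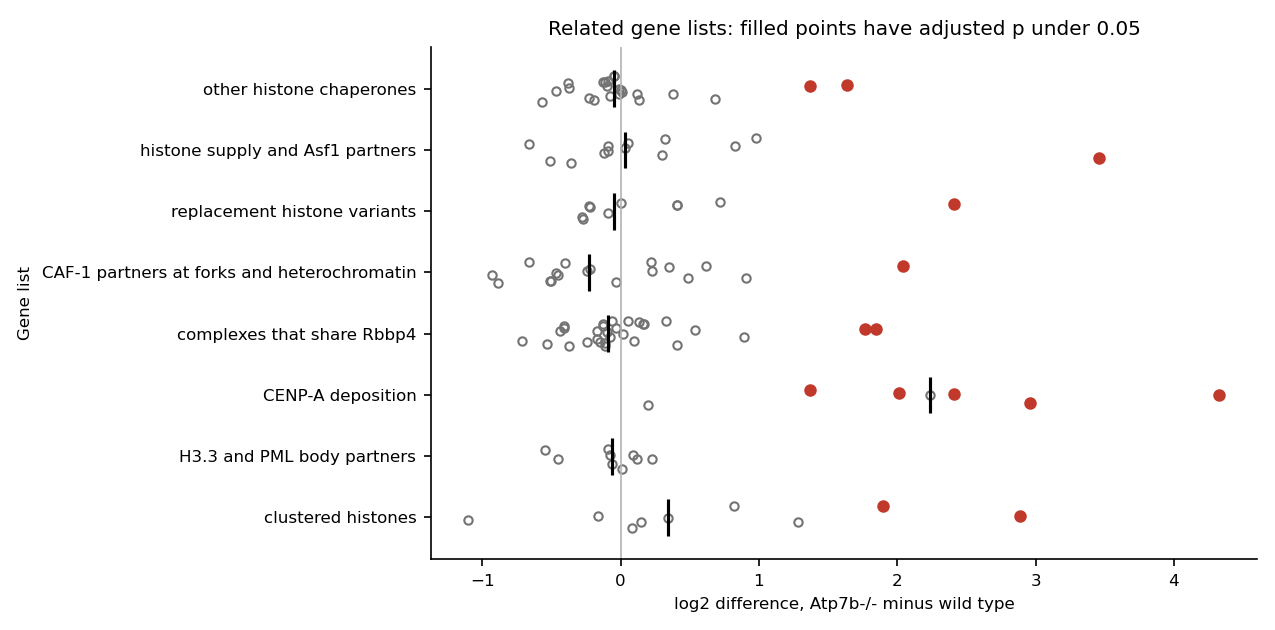
Log2 differences between Atp7b-/- and wild type (x axis) of every measured gene in 8 related lists, with filled points at an adjusted p under 0.05 and black lines at the list medians. The 12 called genes all lie right of 0, and the CENP-A deposition list has its median at 2.24 while the others lie between -0.23 and 0.34.

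The genes with the pattern most like those of the CAF-1 genes were sought by the root mean square difference of centred log2 CPM over the 6 libraries. Only genes above a floor on mean level, with symbols other than those of predicted genes, were compared. Chaf1b itself lay below that floor, so genes as scarce as Chaf1b could not be named. For Chaf1a the nearest of 11621 genes were Tedc1 (0.35), a centriole gene, Ube2c (0.38), the ubiquitin-conjugating enzyme of the anaphase-promoting complex, Espl1 (0.39), which encodes separase, Poc1a (0.40), another centriole gene, and Selenoh (0.40), a nucleolar selenoprotein gene. Tedc1 was 8.69, 6.88 and 2.58 CPM in Atp7b-/- livers, against 0.137, 0.765 and 0.741 CPM in wild type, and like Chaf1a was lowest in the paired-end library of each genotype. For Chaf1b the nearest of 11622 genes were the acyl-CoA thioesterase genes Acot1 (0.29) and Acot2 (0.40), Notum (0.41), a secreted inhibitor of Wnt, its annotated antisense transcript Notumos (0.30), and Dnph1 (0.39), a nucleotide hydrolase gene. Acot1 was 3.56, 6.45 and 2.41 CPM in Atp7b-/- livers, against 7.08, 31.5 and 37.6 CPM in wild type. These values measure likeness over 6 libraries only.

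Markers of other liver cell types are given beside these results, and their part in them, like that of the lower hepatocyte sum in Atp7b-/- livers, was not tested. Summed markers overlapped between genotypes for Kupffer cells and macrophages (198 to 280 CPM in Atp7b-/- and 179 to 365 CPM in wild type, 8 genes), lymphocytes (7.58 to 19 and 6.86 to 15.9 CPM, 9 genes), sinusoidal endothelial cells (203 to 563 and 221 to 760 CPM, 8 genes), stellate cells (454 to 593 and 469 to 663 CPM, 8 genes), cholangiocytes (60.1 to 97.6 and 43 to 61 CPM, 7 genes), erythroid precursors (229 to 368 and 64.8 to 256 CPM, 7 genes) and pancreatic acinar cells (21.9 to 41.6 and 11 to 22.2 CPM, 8 genes). Cpa1, Pnlip and Amy2a5 of the acinar list had no count in any library. Of all markers, Spink1 alone, of the acinar list, was called. Only 2 of the lymphocyte and 3 of the acinar genes passed the count filter.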

How the data were processed

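RNA-seq of 6 mouse liver libraries was analysed from 1 table of raw counts per Ensembl gene that the authors deposited, with no normalization and no unused column (0). STAR 2.4, featureCounts, edgeR 3.8 and build GRCm38 are named, per the submitters' processing notes. For annotation release, strand setting, multi-mapped reads and read pairs, settings were not given in the sources used here. Symbols, coordinates and exon lengths came from GENCODE M21 (GRCm38), promoter sequences from RefSeq (GRCm38.p6).

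Here, counts of 12988 genes past edgeR's expression filter (minimum count 10) were TMM-scaled and tested with edgeR 4.0.16 (R 4.3.3; robust quasi-likelihood, layout and genotype as terms, Benjamini-Hochberg over all genes tested). SE is the absolute log2 difference divided by the square root of F. Log2 CPM used a prior count of 2. The script was tested on simulated data. Alternatives were RLE size factors, no count filter, DESeq2 1.42.0, limma-voom (limma 3.58.1), no layout term, labelled sex in place of layout, single-end libraries only, and leaving out each library. A fit without both libraries that go against their labelled sex, and principal-transcript and unshared exon lengths, were added after seeing the data. Members, lists and settings were chosen with earlier results of these data known. Named were all members, and in each list its called genes or, with none, the 2 with the smallest p. Some genes that this rule names are not reported here.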

Additional observations from a re-analysis of the deposited data

Results flagged for a closer look

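Nasp and Daxx had genotype differences of opposite sign in the layouts, with every library of each layout on its side. For Nasp the Atp7b-/- library was lower than the wild type library among the paired-end ones (17.7 against 27.1 CPM), and both single-end Atp7b-/- libraries (6.47 and 7.44 CPM) were above both wild type ones (5.86 and 5.75 CPM). The genotype change of Nasp was -0.86 in paired-end relative to single-end libraries on the log2 scale (SE 0.46, edgeR adjusted p = 0.987). For Daxx the order was the reverse, with 13.1 against 10.6 CPM in the paired-end pair, and 17 and 16.6 against 19.1 and 18 CPM in the single-end libraries. That change was 0.45 (SE 0.43, edgeR adjusted p = 0.987), and neither passed the test. Labelled sex differs between genotypes within each layout, in opposite directions, so layout and labelled sex cannot be told apart in these changes. By Xist and Ddx3y, however, both paired-end libraries looked male.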

How the results depend on the processing

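Chaf1a, Chaf1b and Asf1b kept their direction under all 14 alternatives, at 2.85 to 3.11, -3.41 to -2.64 and 2.84 to 3.79 on the log2 scale. The value of Chaf1b without both libraries that go against their labelled sex, -3.41 (SE 0.73), moved by more than the replicate spread. So did those of Rbbp4 (0.40, SE 0.32), Cabin1 (-0.43, SE 0.29), Nasp (0.24, SE 0.38) and Daxx (-0.19, SE 0.34). That fit sets Atp7b-/- replicates 1 and 2 against wild type replicate 2 alone, since wild type replicate 1 is fitted exactly. Nasp also moved, to 0.25 without wild type replicate 1 and 0.26 without Atp7b-/- replicate 3. With layout as a term, leaving out either paired-end library fits the other exactly. Both fits therefore repeat the genotype comparison of the single-end libraries alone (0.26 for Nasp) and are not separate checks, also among the 14 alternatives. Leaving out 1 library gave 119 to 323 called genes, 1 to 3 members and 4 to 11 list genes, against 323, 3 and 12. All genes called numbered 1116 without the count filter, 770 by DESeq2 and 126 in the single-end libraries alone, where 1 member and 5 list genes were called. Dropping layout, or replacing it by labelled sex, left 0 genes, 0 members and 0 list genes called. Genes whose genotype change differed between layouts numbered 159 without the filter, 70 by DESeq2, 1 by limma-voom and 0 to 141 with a single-end library left out, against 2. Layout calls of the members numbered 5 to 8. The layout difference of Hira, 0.07, turned to -0.04 without wild type replicate 2 and -0.07 without Atp7b-/- replicate 1 (-0.07 to 0.17 over the leave-outs). The causes were not tested. A paired-end library could not be left out of the test between layouts. No paired analysis was possible because the replicate numbers pair no samples. Depth limits Chaf1b in Atp7b-/- livers and Asf1b in wild type most.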
